A study of Mus musculus with 2 samples.

Results

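The epidermal growth factor (EGF) ligands and ERBB receptors were followed through single cells of the mouse small intestine. The 9 genes were taken by symbol from the 32285 genes of the deposited count tables. They are 6 ligands (Egf, Areg, Ereg, Btc, Hbegf and Tgfa) and 3 receptors (Egfr, Erbb2 and Erbb3), and all 9 had unique molecular identifier (UMI) counts in both libraries. Cells of the Neurog3 lineage were sorted as Tomato-positive from the pooled whole small intestines of 4 to 5 mice per library, aged 4 to 6 weeks. The WT library came from Neurog3Cre; Rosa26tdtomato mice. The second library, labelled NFKO, came from Neurog3Cre-FoxO1 f/f; Rosa26tdtomato mice, which share the Cre and the reporter and also carry floxed FoxO1 alleles. The Cre acts in Neurog3-expressing progenitors, so the sort keeps their descendants and not the whole epithelium. There was 1 library per genotype, hence no test between them. Levels are UMIs scaled to 1000000 UMIs in all (CPM) and summed over cells, and each range in parentheses is a 95% exact interval that covers counting error only.

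EGF family ligands are made as precursors anchored in the cell membrane and are released by proteases. They bind EGFR, the receptor tyrosine kinase that then pairs with itself or with another family member. ERBB2 has no known ligand of its own and ERBB3 has a weak kinase, so both signal as partners. In the intestinal crypt, EGF signals drive the division of stem cells and progenitors, and Paneth cells are known as a source of EGF in mice. Amphiregulin (Areg), epiregulin (Ereg) and betacellulin (Btc) are encoded side by side. On GRCm38 (mm10), chromosome 5 holds Epgn (91027464 to 91035215), Ereg (91074622 to 91093646), Areg (91139599 to 91148432) and Btc (91357261 to 91402994) within 376 kb, with 46.0 kb between Ereg and Areg and 209 kb between Areg and Btc. All are protein-coding genes, and Btc lies on the minus strand. Of the receptors, Egfr (16752203 to 16918158) and Erbb2 (98412470 to 98437716) are on the plus strand of chromosome 11 and Erbb3 (128567523 to 128589652) is on the minus strand of chromosome 10. Egfr overlaps Egfros and Erbb2 overlaps Mien1, each on the opposite strand, and the kit keeps the strand of a transcript.

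The promoter windows of Areg and Btc are shown because these neighbouring genes were the ligands that had their highest class level in goblet-like cells of both libraries. Each is the 250 bases before the RefSeq start site, printed 5′ to 3′ on the gene's strand (GRCm38.p6). Areg is at chr5:91139349-91139598 on the plus strand and Btc at chr5:91402995-91403244 on the minus strand. Capitals mark TGACGTCA, the palindromic cAMP response element (CRE), and the TATA box TATAAA.
Areg: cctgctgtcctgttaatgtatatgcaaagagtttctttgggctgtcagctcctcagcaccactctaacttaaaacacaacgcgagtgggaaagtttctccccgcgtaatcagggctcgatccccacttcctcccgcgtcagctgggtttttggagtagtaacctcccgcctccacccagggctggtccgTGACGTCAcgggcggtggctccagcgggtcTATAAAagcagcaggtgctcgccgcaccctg
Btc: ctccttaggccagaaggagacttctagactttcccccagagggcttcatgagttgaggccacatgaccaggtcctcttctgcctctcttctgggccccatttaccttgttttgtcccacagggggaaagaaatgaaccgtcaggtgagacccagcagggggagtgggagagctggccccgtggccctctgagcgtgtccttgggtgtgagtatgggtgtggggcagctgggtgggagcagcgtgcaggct
The CRE began 61 bases and the TATA box 31 bases before the Areg start site, and the Btc window held neither. Of 32851 mouse promoter windows of the same length, 1.55% held the CRE on either strand and 7.59% the TATA box on the gene's strand. TGANTCA (AP-1) was in 6.75% and GAANNTTC (a heat shock element) in 6.69% of them, both strands searched. Windows were found for 6 of the 9 genes (7 windows, of which 2 were of Egf), and neither of these last motifs was in any of them.

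After filtering, 3003 WT and 5292 NFKO cells remained, with 78424392 and 111522270 UMIs and medians of 16883 and 17035 UMIs per cell. A total of 4 barcode sequences occurred in both libraries. Cells fell into 24 clusters, which were named by marker genes. They gave enteroendocrine-like cells (888 in WT and 1889 in NFKO), goblet-like cells (835 and 1565), Paneth-like cells (262 and 242), tuft-like cells (87 and 140), enterocyte-like cells (257 and 356), stem-like cells (303 and 209), other cycling cells (102 and 296) and lymphocyte-like cells (15 and 4), while 254 and 591 cells stayed unnamed. All 10 cycling markers also passed in the stem-like cluster. In the whole libraries, Foxo1 was at 11.5 CPM in WT and 12.4 CPM in NFKO, so its level did not separate the labels. The 3′ kit can still count a transcript that lacks an internal exon, so this check says nothing about the deletion. By sex-linked genes, 2424 WT cells were typed male and 6 female, against 357 male and 4357 female cells in the library labelled NFKO. Genotype, sex and library therefore cannot be told apart.

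Areg, an EGFR ligand, was mainly a goblet transcript in both libraries. Goblet-like cells held 58.3% of all WT Areg UMIs and 56.7% of those in NFKO, from 24.2% and 27.8% of all UMIs. Its level there was 190.5 CPM (184 to 197) in WT and 68.1 (65.2 to 71.1) in NFKO. In WT it then fell in the order cycling cells (129.7), enteroendocrine-like cells (81.1), enterocyte-like cells (37.8), stem-like cells (35.7), Paneth-like cells (11.1) and tuft-like cells, which had 0 UMIs of Areg. The intervals of the enterocyte-like and stem-like cells overlapped, and those of the other neighbours down to the Paneth-like cells did not. In NFKO the order was goblet-like (68.1), enterocyte-like (55.0), cycling (31.8), enteroendocrine-like (14.2), stem-like (12.5), tuft-like (8.87) and Paneth-like cells (4.67). Of the 396 Areg UMIs of NFKO enterocyte-like cells, 99 were in 1 cell. With every cell thinned to 2000 UMIs, 24.1% (21.2 to 27.2) of WT and 10.2% (8.70 to 11.8) of NFKO goblet-like cells had an Areg UMI, against 55.8% and 31.4% before thinning. The tuft-like cells had the fewest Areg UMIs of the epithelial classes and serve as the background, a choice made from these same values. Their count was 0 UMIs in WT, but 20 UMIs in NFKO, of which 14 were in 1 cell. In WT 0 of 81 thinned tuft-like cells had an Areg UMI, which allows a share of up to 3.70%, and in NFKO 0.730% of 137 did. Before thinning, tuft-like cells had medians of 6098 and 16721 UMIs and goblet-like cells 24267 and 21934. Within the enteroendocrine-like class few cells carried the transcript. There, the 10% of cells with the most Areg UMIs held 90.3% of the WT Areg UMIs, up to 53 in 1 cell.

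**Figure D1:**
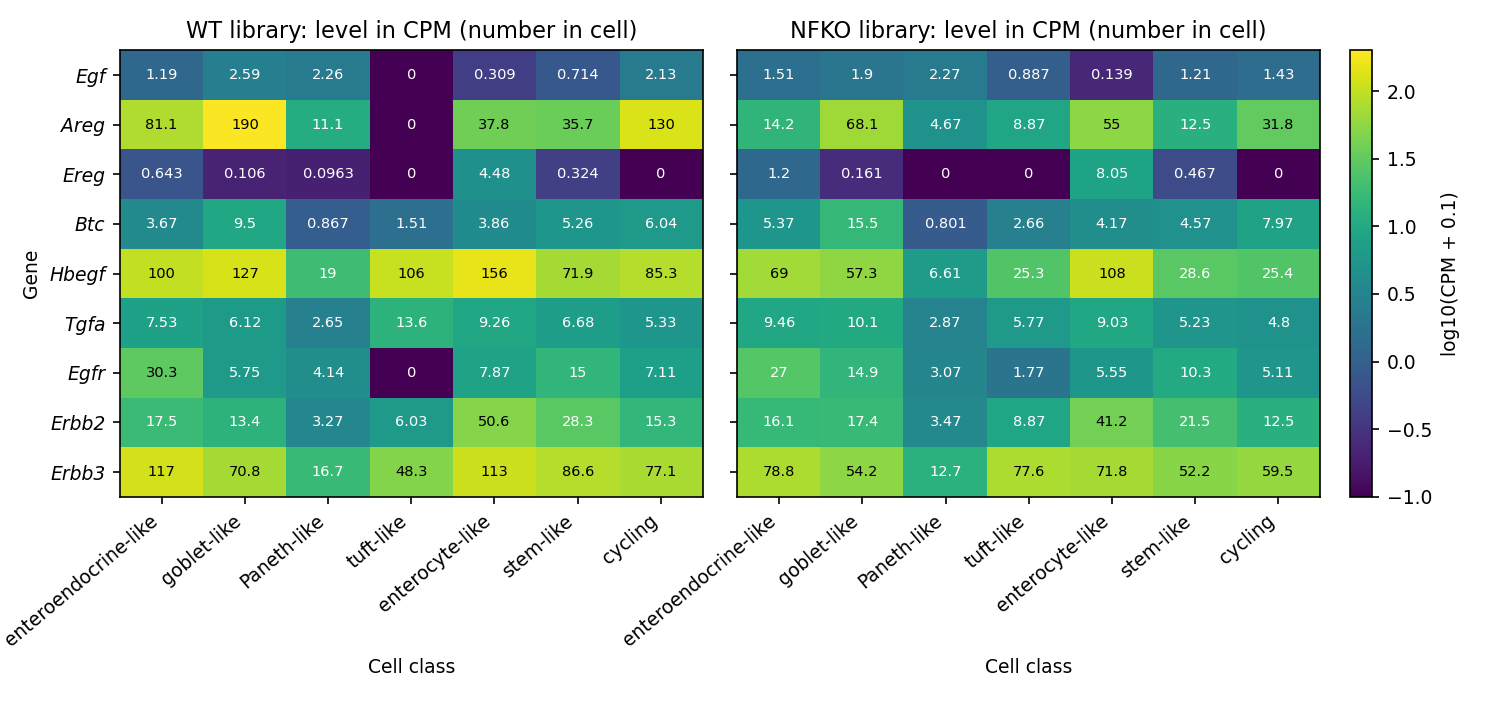
Levels in CPM (number in each cell, colour on a log10 scale) of the 6 ligands and 3 receptors in 7 cell classes, WT library at left and NFKO library at right. Areg was highest in goblet-like cells of both libraries (190.5 and 68.1 CPM) and Egfr in enteroendocrine-like cells (30.3 and 27.0 CPM).

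Hbegf, which encodes heparin-binding EGF-like growth factor, was found in every epithelial class. It was highest in enterocyte-like cells, at 156 CPM (147 to 166) in WT and 108 (101 to 116) in NFKO, and lowest in Paneth-like cells, at 19.0 and 6.61. Goblet-like cells had 127 and 57.3 CPM and enteroendocrine-like cells 100.2 and 69.0. The intervals of WT goblet-like, tuft-like and enteroendocrine-like cells overlapped from each to the next. The level varied between clusters of a class. Enterocyte cluster 8 had 398 CPM in WT and 112 in NFKO. Cluster 10, an enterochromaffin-like cluster (serotonin-producing enteroendocrine cells) led by Cartpt and Afp, had 1091 CPM (973 to 1218) in WT and 568 (538 to 598) in NFKO. It held 28.8% of the Hbegf UMIs of the enteroendocrine-like class in WT and 69.0% in NFKO, from 3.60% and 14.0% of the cells. The other enterochromaffin-like cluster (cluster 5, led by Tac1) had 140.3 and 39.7 CPM.

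Betacellulin (Btc) was also highest in goblet-like cells as a class. Goblet-like cells held 47.2% of WT and 56.5% of NFKO Btc UMIs, at 9.50 CPM (8.16 to 10.99) and 15.5 (14.2 to 16.997). In NFKO this was above every other epithelial class without overlap, while in WT its interval overlapped that of the cycling cells (6.04). Within the class Btc was uneven. Goblet cluster 0, led by Ido1, Zg16 and Clca1, had 27.8 CPM in WT and 31.1 in NFKO, and clusters 1 and 2 had between 8.23 and 12.3 CPM in either library. Outside the goblet-like class, enteroendocrine cluster 19 (Nts) had 24.4 CPM of Btc in NFKO, from 32 UMIs, and 1 UMI in WT. Transforming growth factor alpha (Tgfa) had a flatter pattern, with 7.53 and 9.46 CPM in enteroendocrine-like cells, 6.12 and 10.1 in goblet-like cells and 2.65 and 2.87 in Paneth-like cells. Its highest level in 1 cluster of NFKO was also in goblet cluster 0 (19.2 CPM).

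Ereg, the closest neighbour of Areg, was an enterocyte transcript. Enterocyte-like cells held 58.0% of its 50 WT UMIs and 54.7% of its 106 NFKO UMIs, from 8.26% and 6.46% of all UMIs. The level was 4.48 CPM (2.999 to 6.43) and 8.05 (6.12 to 10.4). In cluster 8, led by Apoa4, Apoa1 and Lct, it reached 21.1 and 14.1 CPM. Goblet-like cells had 2 and 5 Ereg UMIs. Among enteroendocrine clusters, only K-like cluster 3 (Gip; 7 and 21 UMIs) and cluster 20 (Ppy, Pyy; 0 and 14 UMIs) had any. Egf itself was scarce, with 128 UMIs in WT and 180 in NFKO. Goblet-like cells had 2.59 and 1.90 CPM and Paneth-like cells 2.26 and 2.27, with overlapping intervals. Paneth cluster 17, led by Rnase1 and Retnlb, had 5.58 and 6.23 CPM, against 1.49 and 1.39 CPM in cluster 9, which was led by defensins. With both libraries summed, the intervals of the Paneth clusters did not overlap (5.85 CPM, 4.16 to 7.995, against 1.44 CPM, 1.04 to 1.95). The median was 32725 UMIs per cell in cluster 17 and 87213 in cluster 9. Cluster 17 had 39 Egf UMIs in 117 WT and 82 NFKO cells, and cluster 9 had 42 in 145 and 160 cells. Per cell, the clusters thus lay closer than in CPM. In Paneth-like cells the 10 most abundant genes took 64.0% of the UMIs in WT and 61.8% in NFKO, against at most 26.9% in any other named class, so CPM of other genes are lower there by construction.

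Egfr, the receptor for all 6 ligands, was highest in enteroendocrine-like cells. Its level was 30.3 CPM (27.1 to 33.8) in WT and 27.0 (25.2 to 29.0) in NFKO. It was next highest in stem-like cells in WT (14.99) and in goblet-like cells in NFKO (14.9). Paneth-like cells had 4.14 and 3.07 CPM, and tuft-like cells had 0 and 4 UMIs. In thinned cells, 6.09% (4.61 to 7.87) of WT and 5.45% (4.47 to 6.58) of NFKO enteroendocrine-like cells had an Egfr UMI, against 0 of 81 and 0 of 137 tuft-like cells, which allow shares of up to 3.70% and 2.19%. Enteroendocrine subtypes differed. Cluster 10 was again on top with 97.2 and 88.1 CPM. The clusters named by Cck, Gcg, Pyy and Nts (I/L/N-like) had 39.4 and 35.8 CPM together. The K-like cluster had 17.1 and 10.4, the X-like cluster (Ghrl, with Neurog3 among its leading genes) 7.40 and 8.38, and the D-like cluster (Sst) 0 and 5.07.

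**Figure D2:**
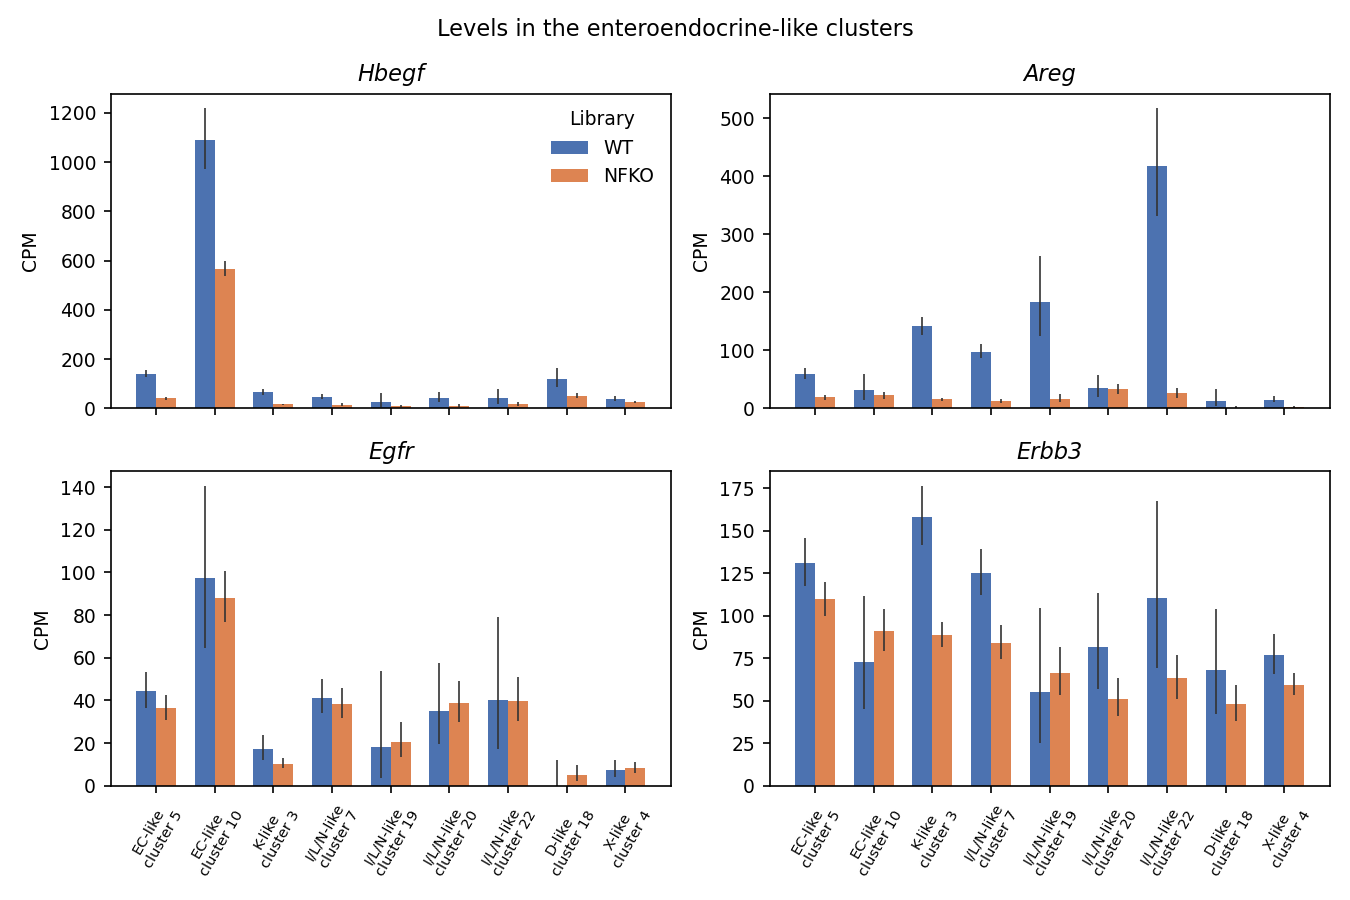
Levels in CPM of Hbegf, Areg, Egfr and Erbb3 in the 9 enteroendocrine-like clusters (x axis, with subtype), WT in blue and NFKO in orange; bars start at 0 and error bars are 95% exact Poisson intervals. Hbegf and Egfr peak in enterochromaffin-like (EC-like) cluster 10, at 1091 and 97.2 CPM in WT, and WT Areg peaks in cluster 22, at 417 CPM from 13 cells.

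Erbb2 was highest in enterocyte-like cells, at 50.6 CPM (45.3 to 56.4) in WT and 41.2 (36.7 to 46.2) in NFKO, followed by stem-like cells (28.3 and 21.5). Paneth-like cells were lowest, at 3.27 and 3.47 CPM. Erbb3, the partner receptor that binds neuregulins, was found in every epithelial class. It had 117 CPM in WT and 78.8 in NFKO enteroendocrine-like cells, 113 and 71.8 in enterocyte-like cells, 70.8 and 54.2 in goblet-like cells, and 16.7 and 12.7 in Paneth-like cells. Before thinning, 68.0% of WT and 64.6% of NFKO enteroendocrine-like cells had an Erbb3 UMI, and in thinned cells the shares were 19.1% and 15.5%. The thinned shares were 8.64% and 10.9% in tuft-like and 4.60% and 3.75% in Paneth-like cells, so no epithelial class gave a background free of Erbb3. Erbb4, the fourth receptor, had 0 UMIs in all cells of both libraries, which allows up to 0.0383 and 0.0269 CPM.

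The further ligands were rare. Epgn had 5 and 9 UMIs and Nrg3 had 0. Nrg1, a ligand of ERBB3 and ERBB4, was found almost entirely in enteroendocrine-like cells, which held 35 of its 39 WT UMIs and 132 of its 135 NFKO UMIs. Of these, 9 and 68 came from cluster 10, the cluster in which Hbegf and Egfr were also highest. Nrg4 had 21 and 17 UMIs in the stem-like cluster and 1 and 12 in the tuft-like cluster, which with both libraries summed was 1.45 and 4.46 CPM. These further genes were singled out after their values were seen.

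Cells with UMIs of both a ligand and a receptor of the family were few at equal depth. Any ligand was counted with any receptor, so the 2 need not bind each other. Of the receptors, Erbb3 was caught in the largest share of thinned enteroendocrine-like cells (19.1% in WT and 15.5% in NFKO). In thinned enteroendocrine-like cells, 22.8% of WT and 15.8% of NFKO cells had a UMI of any of the 6 ligands, 26.2% and 22.8% had a UMI of any of the 3 receptors, and 6.09% and 3.90% had both. In thinned goblet-like cells these shares were 40.4% and 22.6%, 17.6% and 21.7%, and 7.31% and 5.97%. Across the 23 clusters of at least 50 cells, with both libraries summed, Pearson's r of log2(CPM + 1) was 0.29 between Areg and Btc, 0.27 between Areg and Ereg and -0.28 between Ereg and Btc. The highest r between any 2 of the 9 genes was 0.68, between Hbegf and Erbb2. These points share libraries and depth, and r is given as a description. Ereg (50 WT and 106 NFKO UMIs) and Egf (128 and 180) had no UMI in some clusters, so their r rest on few counts. The genes most like Areg were Galnt6 (r = 0.83), which encodes an enzyme of mucin-type glycosylation, Gfpt1 (0.82) and Cx3cl1 (0.79). Efnb1 (0.88), Tmem238l and Trim36 were most like Hbegf. For Btc they were Galnt1 (0.77), Gm49041 and Pwwp2b, for Ereg Mertk (0.82), Nr1i3 and Ephx2, for Egf Slc41a1 (0.70), 4930404N11Rik and Cdk17, and for Tgfa Tapbp (0.79), Plekha7 and Ppp1r15b. Among receptors, Egfr was most like Ttyh1 (0.89), Spry2 (0.87), a feedback inhibitor of receptor tyrosine kinases, and Neto1 (0.85). Erbb2 was most like Caskin2 (0.88), Gm44699 and Pim1, and Erbb3 was most like Elk4 (0.93), Mfn1 (0.93) and Nipa2 (0.92).

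NFKO was then set beside WT in the 3 secretory classes. In enteroendocrine-like cells, 1 of the 8 members with at least 50 UMIs was at least 2-fold apart, and this was Areg, which was lower in NFKO. Of all 12761 genes with at least 50 UMIs, 1.92% were at least 2-fold lower and 2.9% at least 2-fold higher. Areg was at 81.1 CPM (75.8 to 86.6) in WT and 14.2 (12.9 to 15.7) in NFKO, a ratio of NFKO over WT of 0.175 (0.156 to 0.197). The Areg ratio was 0.108 in the K-like cluster, 0.179 over the I/L/N-like clusters, 0.120 in the X-like cluster and 0.349 over the enterochromaffin-like clusters. In cluster 20 it was 0.938 (0.523 to 1.79). Hbegf had a ratio of 0.689 (0.640 to 0.742) over the class. That ratio combined lower levels within clusters with a shift of cells, since cluster 10 was 3.60% of WT and 14.0% of NFKO enteroendocrine-like cells. With the same mix of clusters in both libraries, Hbegf had a ratio of 0.434 and also passed 2-fold. The Erbb3 ratio was 0.672 (0.627 to 0.720). Egfr (0.892, 0.784 to 1.02) and Erbb2 (0.923, 0.778 to 1.10) had intervals that held 1. The median log2 ratio of all genes tested was -0.03.

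**Figure D3:**
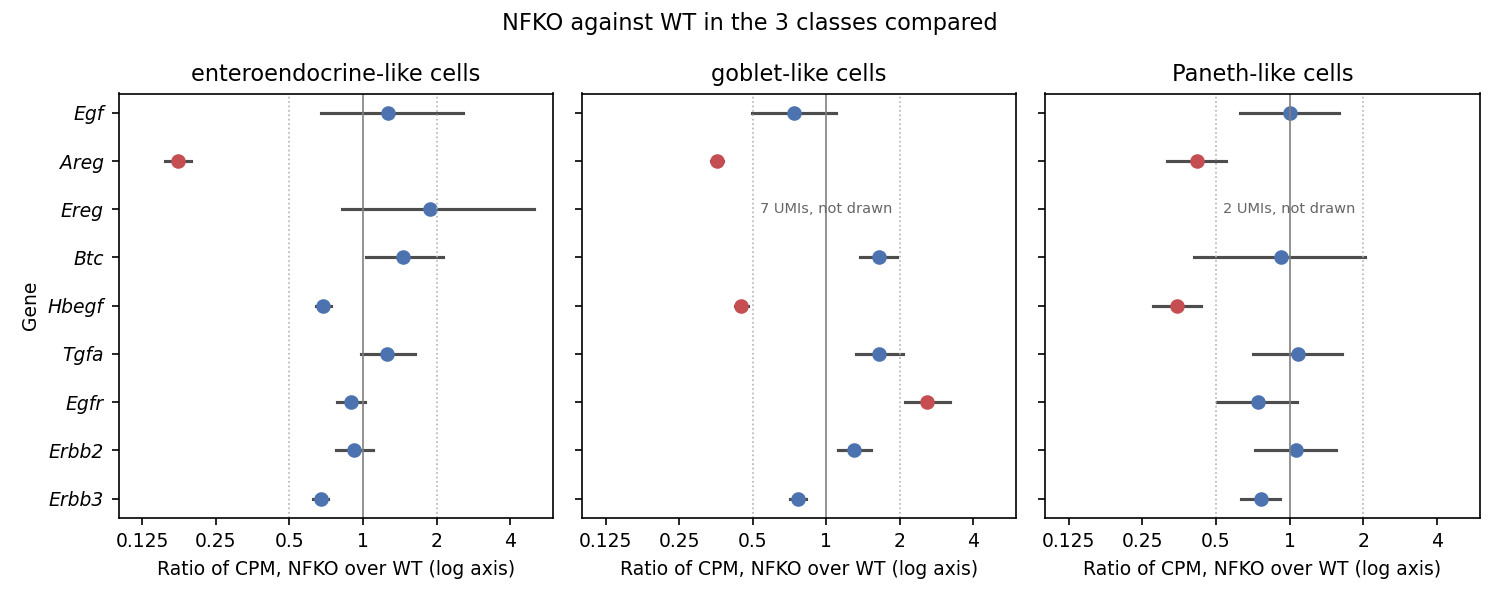
Ratio of CPM, NFKO over WT, on a log axis for each gene by class (enteroendocrine-like at left, goblet-like in the middle, Paneth-like at right); lines are 95% exact conditional binomial intervals for counting error, red points are at least 2-fold apart and dotted lines mark 2-fold. Areg lies left of 0.5 in all 3 classes (0.175, 0.357 and 0.420) and Egfr lies right of 2 in goblet-like cells (2.58).

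In goblet-like cells, 3 of 8 members were at least 2-fold apart, against 1.81% of 10992 genes lower and 3.97% higher. Areg (ratio 0.357, 0.339 to 0.377) and Hbegf (0.450, 0.423 to 0.478) were lower in NFKO, and Egfr was higher, at 5.75 CPM in WT and 14.9 in NFKO (ratio 2.58, 2.09 to 3.21). The goblet-like cells of the libraries lay in different clusters. Cluster 2, led by Edn2, Lrg1, Areg and Hspa1a, held 77.1% of WT and 2.11% of NFKO goblet-like cells, whereas clusters 0 and 1 (the latter led by Mptx1) held 10.8% and 12.1% of WT and 51.4% and 46.5% of NFKO cells. Within cluster 0, Areg was at 165 CPM in WT and 85.0 in NFKO (0.514, 0.422 to 0.631) and Hbegf at 154 and 73.7 (0.480, 0.390 to 0.594). In cluster 1 both were higher in NFKO, with 36.2 and 61.0 CPM for Areg (1.69, 1.37 to 2.10) and 36.6 and 48.8 for Hbegf (1.34, 1.08 to 1.67). In cluster 2 the ratios were 0.173 (0.107 to 0.266) for Areg and 0.622 (0.459 to 0.825) for Hbegf. They rest on 21 and 49 UMIs in the 33 NFKO cells of that cluster. The Egfr ratio was 1.61 (0.964 to 2.91) in cluster 0, 1.75 (0.861 to 4.16) in cluster 1 and 1.63 (0.517 to 3.96) in cluster 2, so that each interval held 1. The Btc ratio of 1.64 (1.38 to 1.95) over the class became 0.937 with the same mix of clusters. Under that mix the ratios were 0.479 for Areg, 0.702 for Hbegf and 1.64 for Egfr, and only Areg stayed past 2-fold. The mix weights each cluster by its UMIs, so these values lean on the 33 NFKO cells of cluster 2.

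**Figure D4:**
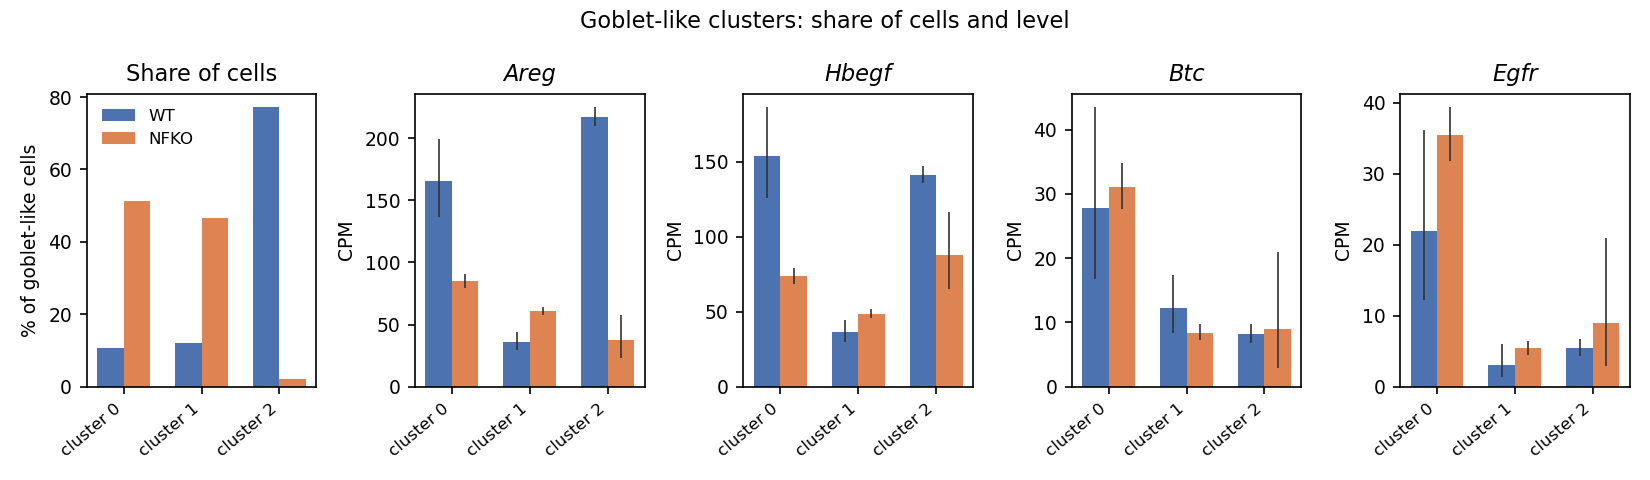
Share of goblet-like cells in clusters 0, 1 and 2 of each library (first panel, percent) and the levels in CPM of Areg, Hbegf, Btc and Egfr in each cluster with 95% exact Poisson intervals. Cluster 2 holds 77.1% of WT but 2.11% of NFKO goblet-like cells, and Btc and Egfr are highest in cluster 0 of both libraries.

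In Paneth-like cells, 2 of 7 members were at least 2-fold apart, against 1.29% of 9410 genes lower and 3.08% higher. Areg was at 11.1 CPM in WT and 4.67 in NFKO (ratio 0.420, 0.317 to 0.551), and Hbegf at 19.0 and 6.61 (0.347, 0.276 to 0.434). Both were lower in NFKO within each Paneth cluster (Areg 0.593 in cluster 9 and 0.337 in cluster 17, Hbegf 0.313 and 0.397). When each cell was thinned to 2000 UMIs, Areg had 6 UMIs in each library in this class and a ratio of 1.09. The thinned share of Paneth-like cells with an Areg UMI was 1.92% in WT and 2.08% in NFKO, and both intervals overlapped those of tuft-like cells, the background for Areg. The NFKO level of 4.67 CPM lay below the 8.87 CPM of NFKO tuft-like cells and could not be told apart from background. Of the 20 UMIs behind that tuft-like level, 14 were in 1 cell, and abundant genes lower CPM in Paneth-like cells by construction. The WT level lay above the upper limit of 5.56 CPM in WT tuft-like cells. Egf had a ratio of 1.00 (0.625 to 1.59). The median log2 ratio of all genes in Paneth-like cells was 0.15.

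Across clusters, the interval of the Areg ratio lay under 1 in 16 of 21 and over 1 in 3 (clusters 1, 11 and 15). These 21 clusters had at least 20 Areg UMIs and a ratio that could be formed. Tuft-like cluster 16, with 0 Areg UMIs in WT and 20 in NFKO, was left out, and the lower limit of its ratio was 1.45. For Hbegf the interval lay under 1 in 19 of 22 and over 1 in 1 (cluster 1). For Erbb3 it lay under 1 in 11 of 23 and over 1 in 1, the tuft-like cluster, where Erbb3 was at 48.3 CPM in WT and 77.6 in NFKO. For Egfr it lay under 1 in 2 of 18 (clusters 3 and 6) and over 1 in 0, and for Erbb2 under 1 in 4 of 18 and over 1 in 1. The intervals of Egf, Ereg, Btc and Tgfa held 1 in each of the 5, 3, 13 and 17 clusters with 20 UMIs.

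Heat shock transcripts differed between the libraries as well. Hspa1a, an inducible chaperone gene, was at 296 CPM over all WT cells and 23.2 over all NFKO cells. Summed with Hspa1b, it was lower in NFKO in every cluster. The summed level of 20 heat shock and dissociation response genes was 18208 CPM in WT and 12195 in NFKO enteroendocrine-like cells (19 of 20 lower in NFKO), 10301 and 7086 in goblet-like cells (18 of 20) and 3235 and 2486 in Paneth-like cells (14 of 20). Among goblet-like cells with no UMI of Hspa1a or Hspa1b, Areg was at 78.1 CPM (67.4 to 90.1) in 142 WT cells and 64.7 (61.5 to 68.0) in 1281 NFKO cells, a ratio of 0.827, and 0 members passed 2-fold. WT goblet-like cells with such a UMI had 207 CPM of Areg. Cells with no UMI of these 2 genes are called heat-free here, whatever their counts of other stress genes. The Egfr ratio in heat-free goblet-like cells was 1.39. Cluster 2, with Hspa1a and Hspa1b among its leading genes, held 77.1% of WT goblet-like cells and 94.3% of their Areg UMIs. In NFKO it held 2.11% of goblet-like cells. The mix of clusters among heat-free cells was not examined, and its part in the heat-free ratios was not tested. In heat-free enteroendocrine-like cells Areg was at 56.6 CPM (47.8 to 66.7) in 231 WT cells. It was at 13.5 CPM (12.0 to 15.1) in 1441 NFKO cells, a ratio of 0.238. The Hbegf ratio in these cells was 1.09. Heat-free Paneth-like cells had 1 Areg UMI in WT and 40 in NFKO. Cells without such a UMI had lower median UMI counts than the others in these 3 classes of both libraries (18543 against 24818 in WT goblet-like cells). Reads cannot be divided with certainty between Hspa1a and its near copy Hspa1b, and the part of the heat shock response in the ratios was not tested.

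**Figure D5:**
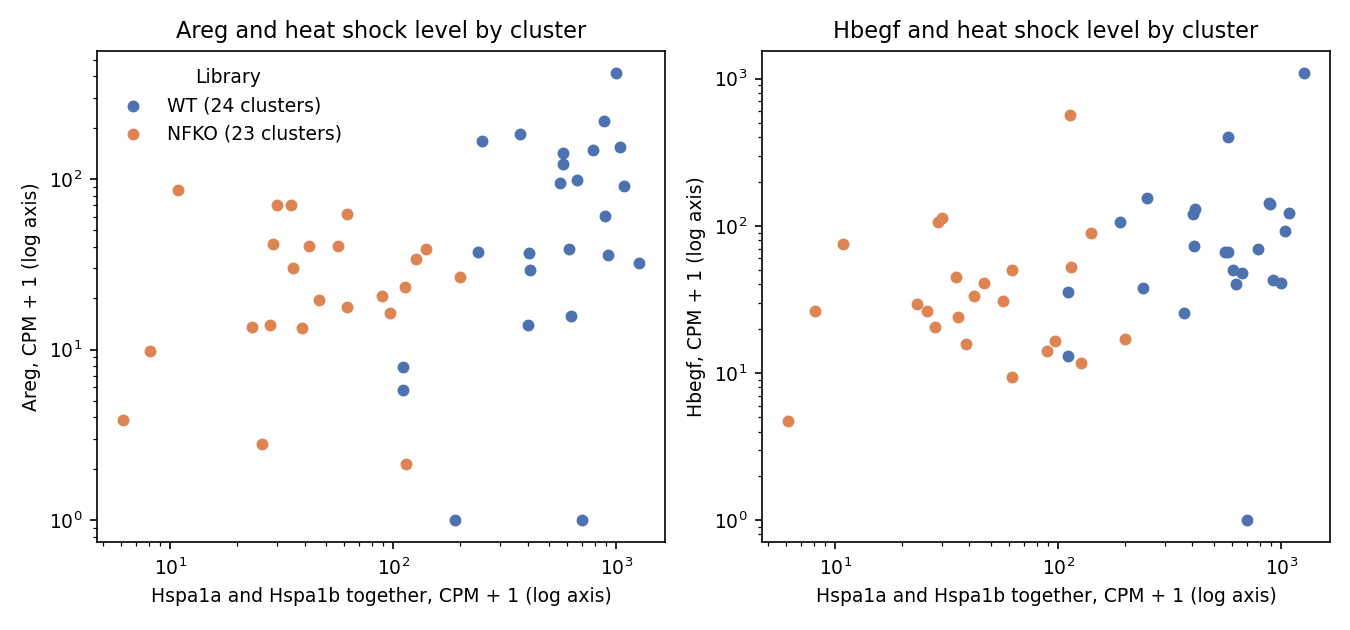
Each point is 1 cluster of at least 10 cells in 1 library (24 in WT, blue; 23 in NFKO, orange), with the summed level of Hspa1a and Hspa1b on the x axis and Areg (left) or Hbegf (right) on the y axis, all in CPM + 1 on log axes. Hspa1a and Hspa1b together range from 110 to 1264 CPM in WT clusters and from 5.14 to 198 in NFKO clusters.

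Sex and mitochondrial content also differed between the libraries. Of the deposited barcodes, 35.6% in WT and 17.3% in NFKO were over the mitochondrial limit, and 38.1% and 25.3% were removed by the filter. Among kept cells the median mitochondrial share was higher in WT in all 7 epithelial classes, at 3.55% against 2.81% in enteroendocrine-like, 4.18% against 3.11% in goblet-like, 1.80% against 1.38% in Paneth-like and 12.4% against 4.94% in tuft-like cells. Its part in the ratios was not tested. In male-typed cells the Areg ratio was 0.126 in enteroendocrine-like cells, from 789 UMIs in WT and 21 in NFKO, and 0.305 in goblet-like cells, from 3232 and 145 UMIs. Within the library labelled NFKO, Areg was at 10.4 CPM in male-typed and 14.3 in female-typed enteroendocrine-like cells, and at 59.3 and 69.1 CPM in goblet-like cells. Markers of lymphocytes were at or near 0 in the 3 secretory classes, with a summed level of at most 0.344 CPM over 10 genes (5 to 7 of them at 0). Those of stromal cells summed to at most 0.4003 CPM in goblet-like and Paneth-like cells, with 7 and 8 of 10 genes at 0. In enteroendocrine-like cells they summed to 9.46 and 7.88 CPM, with 5 of 10 at 0. The 10 myeloid markers summed to at most 7.90 CPM in the 3 classes, with 1 to 3 of them at 0.

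The rest of the pathway was read from lists of its genes. In enteroendocrine-like cells 0 of 5 shedding genes, 0 of 8 adaptors and 0 of 9 RAS and MAP kinase genes with at least 50 UMIs passed 2-fold, against 2 of 11 feedback inhibitors and 2 of 9 target genes, all 4 lower in NFKO, beside 1.92% lower and 2.9% higher among all genes tested. The inhibitors were Lrig3 (11.6 and 5.13 CPM, ratio 0.443) and Spry1 (16.8 and 7.50 CPM, ratio 0.446), and the targets were Fosl1 (5.24 and 1.96 CPM, ratio 0.375) and Myc (8.82 and 4.40 CPM, ratio 0.499). In goblet-like cells 1 of 5 shedding genes (Rhbdl2, a rhomboid protease, 3.01 and 8.87 CPM, ratio 2.95), 1 of 9 inhibitors (the MAP kinase phosphatase Dusp6, 11.3 and 24.2 CPM, ratio 2.14) and 1 of 8 targets (Etv5, ratio 2.17) were higher in NFKO. The target Myc was lower (11.2 and 5.55 CPM, ratio 0.496). The shares of all genes tested were 1.81% lower and 3.97% higher. In Paneth-like cells 0 of the genes of these lists passed 2-fold. These ratios are of class sums, and the mix of clusters within a class differed between the libraries. Cluster 2, for 1, held 77.1% of WT and 2.11% of NFKO goblet-like cells. Ratios of these pathway genes within clusters or at the same mix were not examined.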

How the data were processed

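Tomato-positive small-intestinal cells of 1 WT and 1 NFKO library were profiled with the 10x Genomics 3′ kit. The deposited values are UMI counts per gene and barcode, which the authors made with Cell Ranger 5.0.1 on mm10 per the submitters' processing notes. Of 5051 and 7540 deposited barcodes, those under 500 genes or 1000 UMIs or over 25% mitochondrial counts were dropped, and the highest Scrublet scores were removed as doublets (scanpy 1.11.5; 126 and 340 cells, at 0.8% per 1000 barcodes). The automatic threshold had marked 57 and 3. Seurat 5.3.0 in R 4.3.3 clustered the cells on 2000 variable genes and 30 components at resolution 0.8, with 25 genes left out, among them the 9 members. A class was named where at least 3 of its markers were 2-fold higher and in at least 10% of cells. Clusters whose median UMI count was under 33.3% of the library's also needed 3 own markers among their leading 10 genes, a rule set after the data were seen. Counts were summed per class and library. Levels have exact Poisson intervals, shares Clopper-Pearson intervals and ratios conditional binomial intervals at 95%. Limits for 0 counts given as "up to" a value use 3 counts. The limit of 5.56 CPM for Areg in WT tuft-like cells is instead the upper end of the exact Poisson interval. Genes with at least 50 UMIs over both libraries were compared at 2-fold. In goblet-like sums of 10992 genes simulated as Poisson counts, 95.4% of intervals held the true ratio. This checks the calculation only, because clumping of UMIs in single cells and differences between mice were not simulated. The members, gene lists and rules were chosen with earlier results of these data known. Named genes were all members, pathway genes past 2-fold (at most 4 per class), and the 3 genes most correlated with each member. Positions came from GENCODE annotation of GRCm38. No cell annotation of the authors was used.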

Additional observations from a re-analysis of the deposited data

Results flagged for a closer look

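The ratio of NFKO over WT pointed in opposite directions in different classes for 4 members, with intervals on either side of 1. The differences between the classes were not tested, and each class has 1 library per genotype. Areg was lower in enteroendocrine-like cells (0.175, 0.156 to 0.197) and higher in enterocyte-like cells (1.45, 1.24 to 1.71). Of the 396 Areg UMIs of NFKO enterocyte-like cells, 99 were in 1 cell. The share of enterocyte-like cells with an Areg UMI was 31.9% in WT and 27.0% in NFKO, and 6.69% and 7.99% after thinning. In this class, cluster 8 held 47.9% of WT and 68.5% of NFKO cells, and the Areg ratio was 0.568 (0.440 to 0.739) in cluster 8 and 1.44 (1.14 to 1.81) in cluster 15. Egfr was lower in stem-like cells (0.685, 0.541 to 0.863) and higher in goblet-like cells (2.58, 2.09 to 3.21), where each of the 3 cluster intervals held 1. Erbb2 was lower in stem-like cells (0.759, 0.644 to 0.892) and higher in goblet-like cells (1.30, 1.12 to 1.52), where it was 1.25 (0.743 to 2.26) in cluster 0, 0.902 (0.635 to 1.32) in cluster 1 and 1.95 (1.05 to 3.34) in cluster 2. Erbb3 was lower in stem-like cells (0.602, 0.545 to 0.665) and higher in tuft-like cells (1.61, 1.10 to 2.42), the latter from 32 UMIs in WT and 175 in NFKO.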

How the results depend on the processing

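Of 292 pairs of a ratio and an alternative setting, 260 had the same direction as the value reported and 227 lay within its counting interval. The settings differed widely. Within the interval lay 5 of 24 ratios in male-typed cells, 7 of 23 in cells with no UMI of Hspa1a or Hspa1b and 8 of 20 in thinned cells. It was 17 of 25 with each cell weighted the same and 18 of 25 with the same mix of clusters. Each other setting had 24 or 25 of 25, so the pooled count rests largely on these. The alternatives covered barcode filters, doublets, scaling, weighting of cells, class assignment, clustering, sex, heat shock transcripts and depth, and the mix of clusters was added after seeing the data. The count of members past 2-fold in enteroendocrine-like cells was 2 with the same mix of clusters in both libraries. In goblet-like cells it was 0 in cells with no UMI of Hspa1a or Hspa1b and 1 with the same mix of clusters. In Paneth-like cells it was 4 in male-typed cells and 0 both in cells with no UMI of Hspa1a or Hspa1b and in thinned cells. The male-typed Paneth-like cells of NFKO were 12, with 1 Areg, 2 Hbegf, 1 Egfr and 0 Erbb2 UMIs. The Areg ratio in enteroendocrine-like cells was 0.210 with doublets kept, 0.151 with classes by marker score, 0.126 in male-typed cells and 0.238 in heat-free cells. In goblet-like cells it was 0.402 with each cell weighted the same, 0.305 in male-typed cells, 0.827 in heat-free cells, 0.384 in thinned cells and 0.479 with the same mix of clusters. In Paneth-like cells the Areg ratio turned to 6.77 in heat-free cells and to 1.09 in thinned cells, and the Hbegf ratio to 1.12 in heat-free cells, from 1 to 66 UMIs per library. The male-typed, heat-free and thinned settings leave fewer cells or UMIs by construction. The other settings named here reweight, add or reassign cells. Why the ratios moved was not tested. No paired analysis was possible because each group has 1 library and no test was run.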
